A study of Saccharomyces cerevisiae with 8 samples.

Results

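The transcripts described here encode the subunits of the proteasome of budding yeast (Saccharomyces cerevisiae). They were chosen by gene symbol in the platform's annotation: a probe set had to be assigned to exactly 1 gene whose symbol was PRE, PUP, RPN or RPT with a number, or SCL1. The rule itself used no measured value, but the set was chosen with earlier results of these data known. The rule took 39 probe sets of 34 genes, out of 9275 probe sets tested and 5656 genes with a probe set of their own. Of the 34 genes, 32 encode proteasome subunits, 14 in the core particle and 18 in the regulatory particle. The other two, RPN4 and RPN14, carry a matching symbol but encode a transcription factor and an assembly factor, so the name of the set does not hold for them and they are described apart. The study hybridised RNA from affinity selections to Affymetrix Yeast Genome S98 arrays. In the Upf1p-TAP group (4 arrays), RNA was recovered with Upf1p carrying a TAP tag, which binds IgG beads. In the mock group (4 arrays), the same selection was run as a control. All cells grew in the rich medium YEPD, and selections were numbered 1 to 4 in both groups and run as pairs that the design text calls independent. Like amounts of recovered RNA from both groups entered the last purification before labelling. The labels give no strain, no genotype of the mock cells and no number of separate cultures, so the p-values speak only for the spread among these 4 pairs, which may be technical.

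The proteasome is the protease that destroys proteins marked with ubiquitin. Its barrel-shaped core, the 20S particle, has outer alpha rings that gate the entrance and inner beta rings that hold the proteolytic sites. The 19S regulatory particle caps the barrel: a base with a ring of ATPases unfolds the substrate, and a lid removes its ubiquitin chain. Most subunit genes of yeast are activated together by the transcription factor Rpn4. Upf1p is the RNA helicase of nonsense-mediated decay, a pathway that degrades mRNAs on which translation ends too early, and the study asked which transcripts it is bound to.

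Values are scaled array intensities, and a ratio is the log2 of Upf1p-TAP over mock after 4.09 had been added to each intensity. The 32 subunit genes were well within the measurable range, with signals between 69.1 and 2638 on single arrays, against a median of 66.6 over all values. The signal is a share of the RNA recovered in each selection, so weaker recovery with Upf1p-TAP and stronger background in the mock cannot be told apart. RNA of the whole extract was not used here. The median signal was between 66.3 and 78.1 on the Upf1p-TAP arrays and between 58.2 and 67.4 on the mock arrays. Centring each array on its median therefore moved the median log2 ratio of all probe sets from 0.00 to -0.14. The 3' over 5' signal of actin, a sign of RNA integrity, was highest on both arrays of pair 1 (log2 of 3.75 with Upf1p-TAP and 2.63 in the mock) and ran from 1.29 to 1.75 on the other Upf1p-TAP arrays and from 0.99 to 1.60 on the other mock arrays.

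Subunit transcripts were more often lower than higher in the Upf1p-TAP selections. Of the 32 genes, 13 were lower, 1 was higher and 18 did not pass the test (limma with the pair as a block, adjusted p under 0.05 over all probe sets). Among all probe sets tested 31.2% were called, 13.5% lower and 17.7% higher, against 40.6% and 3.13% of the subunit genes. Among the genes called lower, the lowest ratios belonged to RPN8 (-1.60), RPN2 (-1.15), RPN1 (-1.02), RPT2 (-0.96) and PRE6 (-0.89), and PUP3 (0.61) was the gene called higher. The median log2 ratio of the 32 was -0.52, against 0.00 for all probe sets and 0.05 for all 5486 protein-coding genes. The ratio was below 0 in all 4 pairs for 16 subunit genes and above 0 in all 4 for 3, where these patterns were found for 22.1% and 25.1% of all probe sets. Without overlap between the groups, 11 subunit genes lay below the mock and 1 above it, against 11.1% and 14.9% of all probe sets. Other protein-coding genes in the mock range of the subunits were called lower more often than all probe sets (22.3%) and higher less often (14.6%). Pair patterns and overlap are not given for those genes.

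The number of subunit genes called lower fell whichever pair was left out. Such a fit also has fewer pairs, so a lost call does not single out the pair that was removed. RPT6, RPN3 and PUP2 lost their calls whichever pair was removed. Leaving out pair 1, 2, 3 or 4 left 7, 5, 10 or 7 subunit genes lower, and a fit with no pair block left 9 lower and 0 higher. The share of all probe sets called in these fits is not given here. A general loss of calls therefore cannot be told from a loss among the subunit genes. The calls of RPN8, RPN2, RPN1, RPT2 and PRE6 held in all 12 other settings tried, leaving out each pair among them. The median ratio of the 32 genes stayed between -0.66 and -0.39 over those settings.

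**Figure D1:**
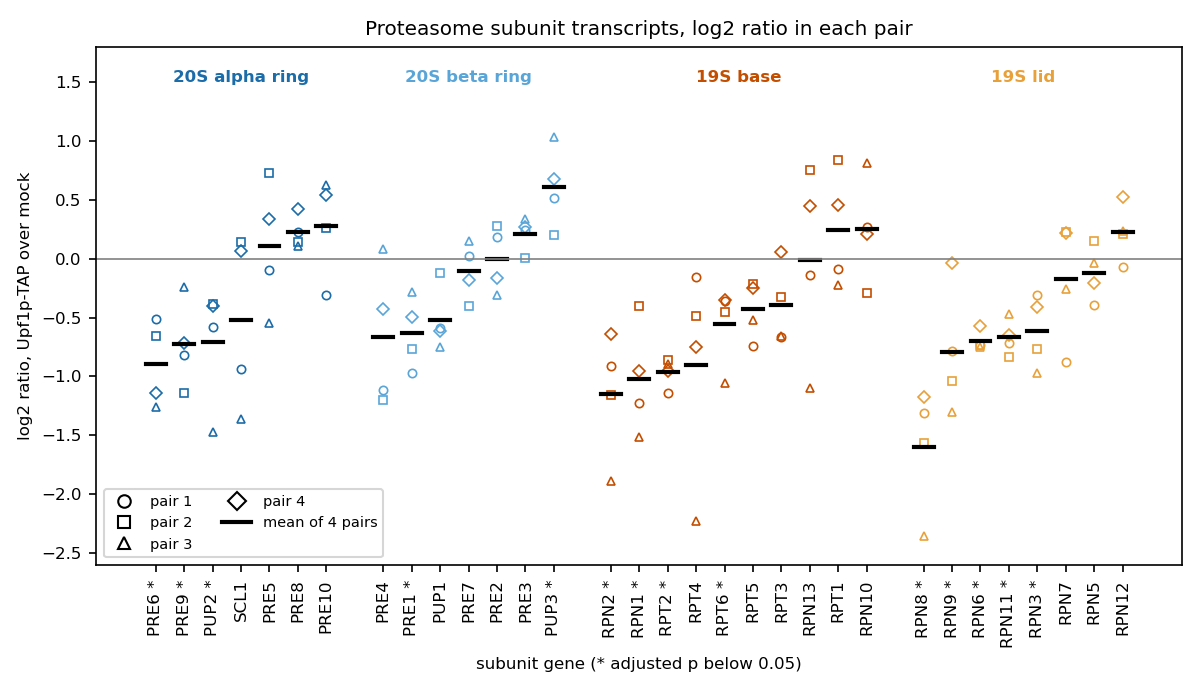
Log2 ratio of Upf1p-TAP over mock (y axis) for each of the 32 subunit genes (x axis), grouped by subcomplex and ordered by ratio. Open symbols are the 4 pairs, black bars their mean, and an asterisk marks an adjusted p below 0.05. RPN8 at the left end of the lid has the lowest mean (-1.60), and PUP3 at the right end of the beta ring the highest (0.61).

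**Figure D2:**
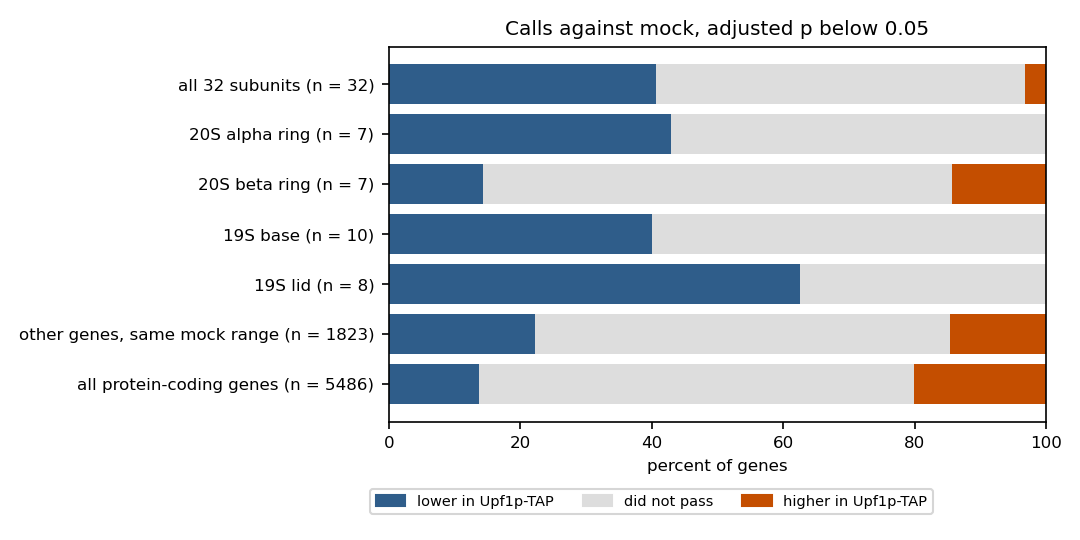
Percent of genes called lower, not called and called higher in Upf1p-TAP against mock (x axis) for all subunit genes, each subcomplex, other protein-coding genes in the same range of mock signal and all protein-coding genes. The lower share is 62.5% in the lid, 42.9% in the alpha ring, 40.0% in the base and 14.3% in the beta ring, against 22.3% of the other genes in that range.

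In the lid, 5 of 8 genes were lower and 0 higher, with a median log2 ratio of -0.64. RPN8 encodes the inactive partner of the lid's deubiquitinase and had the lowest ratio of all subunit genes. Its signal was 122, 196, 76.5 and 169 in Upf1p-TAP selections 1 to 4, against 309, 586, 409 and 387 in the mock selections. Every Upf1p-TAP array lay below every mock array, and the log2 ratio was -1.60 (SE 0.24, adjusted p = 0.00117), a mock signal 3.04 times as high. RPN6, whose product clamps the lid to the core, had 503, 525, 475 and 513 with Upf1p-TAP, against 839.7, 877, 803 and 763 in the mock. The groups did not overlap, and its pair ratios had the smallest spread of the 32 genes, from -0.75 to -0.57, with a mean of -0.70 (SE 0.17, adjusted p = 0.0128). RPN11, the deubiquitinase itself, had 345, 457, 525 and 407 with Upf1p-TAP, against 571, 818, 726 and 638 in the mock. The groups did not overlap there either, and the ratio was -0.67 (SE 0.17, adjusted p = 0.0184).

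RPN9, a structural lid subunit, had 167, 301, 183 and 361 with Upf1p-TAP, against 289.7, 622, 458 and 369.7 in the mock. The groups overlapped, pair 4 hardly differed (-0.03), pair 3 gave -1.30, and the mean was -0.79 (SE 0.23, adjusted p = 0.0307). RPN3, another structural subunit, averaged 141 ± 21 against 223 ± 59.3 in the mock (SD, n = 4 each), a log2 ratio of -0.61 with limma's adjusted p = 0.0473. At the upper end of the lid, RPN12 had 177, 298, 314 and 356 with Upf1p-TAP, against 186, 256, 266 and 246 in the mock, and its ratio of 0.23 did not pass (95% interval -0.21 to 0.66). RPN7 (-0.17, interval -0.69 to 0.34) and RPN5 (-0.12, interval -0.56 to 0.32) did not pass. SEM1, a small lid subunit whose symbol falls outside the rule, had 387 ± 58.1 against 339.5 ± 73.2 in the mock (SD, n = 4 each) and a ratio of 0.20 that did not pass. The call of RPN6 ended without pair 2 (adjusted p = 0.054), that of RPN11 without pair 1, 2 or 4 (highest 0.0839, limma), that of RPN9 without pair 1, 2 or 3 (highest 0.11) and that of RPN3 without any 1 pair (highest 0.152). RPN9 and RPN3 also missed the threshold with no pair block, and RPN3 with no intensity trend.

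In the base, 4 of 10 genes were lower and 0 higher, with a median log2 ratio of -0.49. RPN2 and RPN1 encode the large scaffold subunits on which ubiquitin receptors and shuttle factors dock. RPN2 had 255, 164, 133 and 192 with Upf1p-TAP, against 483, 372, 505 and 301 in the mock, with no overlap and a ratio of -1.15 (SE 0.23, adjusted p = 0.00599). RPN1 had 86, 90.5, 89.6 and 74 with Upf1p-TAP, against 207, 121, 264 and 147 in the mock. The Upf1p-TAP values of RPN1 lay close together while its mock values spread more than 2-fold, and the ratio was -1.02 (SE 0.23, adjusted p = 0.00976). RPN8, RPN2 and RPN1 were the 3 subunit genes at least 2-fold lower.

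The ATPase ring of the base is built from RPT1 to RPT6. Of these 6 genes 2 were lower (33.3%), against 13.5% of all probe sets and 22.3% of other genes in the subunits' mock range. RPT2, whose product helps to open the core's gate, had 72.2, 81.6, 104 and 69.1 with Upf1p-TAP, against 164, 152, 197 and 138 in the mock, and a ratio of -0.96 (SE 0.19, adjusted p = 0.00567) that was alike in every pair (-1.14, -0.86, -0.90 and -0.95). RPT6 had 1296, 1130.2, 721 and 1194 with Upf1p-TAP, against 1659, 1549, 1505 and 1525 in the mock. The groups did not overlap and pair 3 was the lowest (-1.06), but its ratio of -0.55 (SE 0.18, adjusted p = 0.0446) lost its call without any 1 pair (highest adjusted p = 0.11), with no pair block, with quantile normalization and with no intensity trend. RPT4 had a ratio of -0.90 (interval -1.62 to -0.19) that did not pass (adjusted p = 0.056). Its pairs ran from -2.23 in pair 3 to -0.15 in pair 1, and it was called lower in 6 other settings, among them without pair 1 and with no pair block. RPT5 (-0.43, interval -0.86 to 0.01), RPT3 (-0.40, -0.87 to 0.07) and RPT1 (0.25, -0.24 to 0.74) did not pass.

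The ubiquitin receptor genes RPN10 and RPN13 were among the base genes with the highest ratios. RPN10 had 1176, 1019, 1637 and 1028 with Upf1p-TAP, against 976, 1249, 928 and 889 in the mock, overlapping values with a ratio of 0.25 (interval -0.21 to 0.71) that did not pass. RPN13 averaged 824 ± 393 against 762 ± 135 in the mock (SD, n = 4 each), and its pairs disagreed, from -1.10 in pair 3 to 0.75 in pair 2. Its mean of -0.01 had an interval of -0.64 to 0.62.

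**Figure D3:**
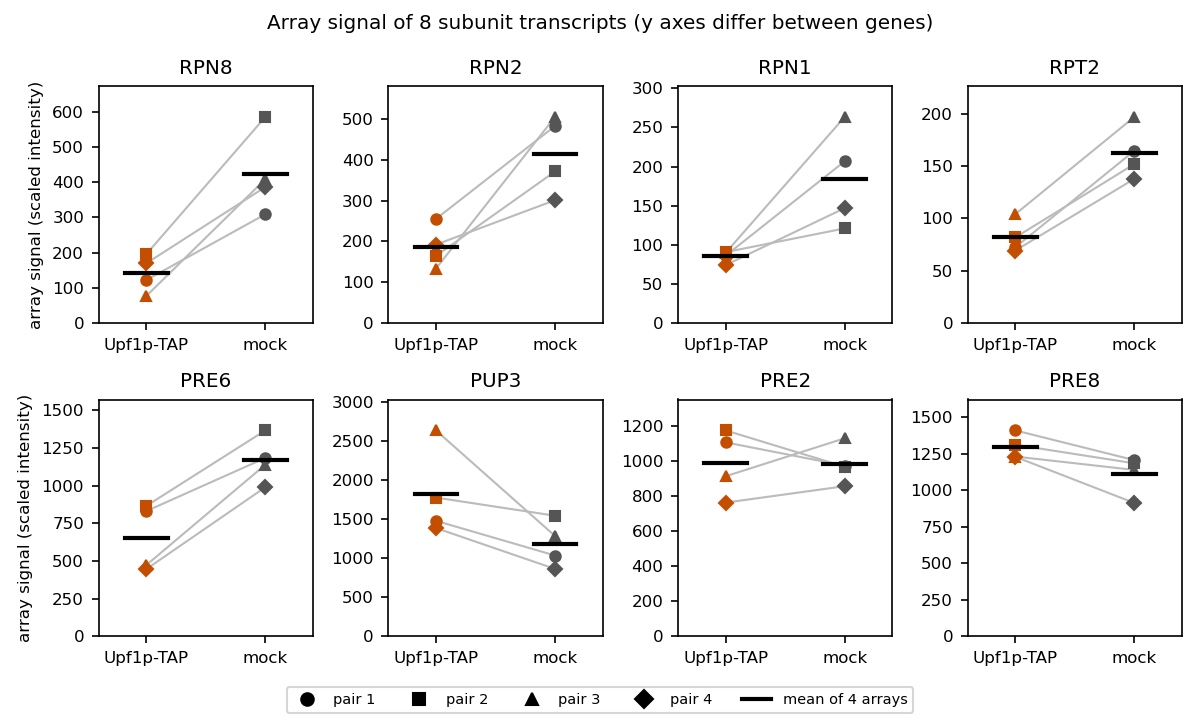
Scaled array signal (y axis, a scale of its own for each gene) of 8 subunit transcripts on the Upf1p-TAP arrays (left of each panel) and the mock arrays (right). Lines join the arrays of a pair and black bars are means of 4 arrays. All Upf1p-TAP points lie below all mock points for RPN8, RPN2, RPN1, RPT2 and PRE6, while PRE2 has means of 991 with Upf1p-TAP and 984 in the mock.

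In the alpha ring of the core, 3 of 7 genes were lower and 0 higher, with a median log2 ratio of -0.52. PRE6 had 831, 865, 473 and 446 with Upf1p-TAP, against 1183, 1366, 1139 and 989 in the mock, with no overlap and a ratio of -0.89 (SE 0.19, adjusted p = 0.00757). PRE9, the alpha subunit that yeast can live without, had 358, 318, 469 and 319.7 with Upf1p-TAP, against 635, 706, 553 and 528 in the mock. Its ratio was -0.73 (SE 0.20, adjusted p = 0.0228), and the groups did not overlap. PUP2 had 407, 399, 156 and 323 with Upf1p-TAP, against 611, 524, 439 and 428 in the mock, and its ratio of -0.71 (SE 0.23, adjusted p = 0.0401) was lowest in pair 3 (-1.47). Its groups did not overlap.

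SCL1 split by pair: it had 289, 691, 271 and 638 with Upf1p-TAP, against 557, 627, 702 and 608 in the mock. Pairs 1 and 3 were low and pairs 2 and 4 near 0, and the mean of -0.52 did not pass (interval -1.13 to 0.08). PRE10, at the upper end of the ring, had 625, 891, 1094 and 789.9 with Upf1p-TAP, against 775, 741, 707 and 541 in the mock, and a ratio of 0.28 that did not pass (interval -0.17 to 0.74). PRE8 (0.23, interval -0.14 to 0.59) was above the mock on every array, the 1 subunit gene of which this held, and did not pass (limma, adjusted p = 0.322). PRE5 (0.11, interval -0.39 to 0.60) did not pass. The call of PRE9 ended without pair 1, 2 or 4 (highest adjusted p = 0.108), and that of PUP2 without any 1 pair (highest 0.112, limma), with no pair block and with no intensity trend.

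In the beta ring, 1 of 7 genes was lower and 1 higher, with a median log2 ratio of -0.10. PUP3 was the higher one, with 1480.3, 1778, 2638 and 1388 on the Upf1p-TAP arrays, against 1036, 1546, 1286 and 864 on the mock arrays. The groups overlapped across pairs, but Upf1p-TAP was above its own mock in each pair, for a ratio of 0.61 (SE 0.18, adjusted p = 0.0316). PRE1 had 219.9, 401, 469 and 331 with Upf1p-TAP, against 436, 686, 570.0 and 469 in the mock. Its groups overlapped, and the log2 ratio was -0.63 (SE 0.19, adjusted p = 0.0344). The call of PUP3 ended without pair 1, 3 or 4 (highest adjusted p = 0.101), with no pair block and with no intensity trend, and that of PRE1 without pair 1, 2 or 4 (highest 0.125, limma) and with no pair block. After median centring PUP3 was at 0.46 and was not called.

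PUP1, PRE2 and PRE3 encode the subunits that carry the proteolytic sites, and none of the 3 passed. PUP1, the trypsin-like subunit, had 799.6, 891, 646 and 618 with Upf1p-TAP, against 1202, 971, 1090.4 and 946 in the mock, values that did not overlap, with a ratio of -0.52 (interval -0.92 to -0.12, adjusted p = 0.053). PRE2, the chymotrypsin-like subunit, was at -0.00 (interval -0.40 to 0.40). PRE3, the caspase-like subunit, was at 0.21 (interval -0.15 to 0.58) on its main probe set. PRE4 had 452, 563, 1216 and 722 with Upf1p-TAP, against 985, 1299, 1145 and 973 in the mock. Its pairs 1 and 2 were low (-1.12 and -1.20) and pair 3 was not (0.09), and the mean of -0.67 did not pass (adjusted p = 0.0577), though without pair 3 it did. PRE7 was at -0.10 (interval -0.50 to 0.29).

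For PRE3 and RPT5, which have more than 1 probe set, the value depended on the probe set. The plain probe set that stands for PRE3 had 1338 ± 141, against 1149 ± 54.4 in the mock (SD, n = 4 each). Both other probe sets of PRE3, whose names carry an added letter, had ratios below 0. One was called lower (-0.91, adjusted p = 0.0394 by limma), with means of 127 with Upf1p-TAP and 233 in the mock. The other was not (-0.51, means of 102 and 141 in the same order), and both were dimmer than the plain probe set. RPT5 had a ratio of -0.43 on the probe set used, against -1.52 and -1.12 on others that were called lower and 0.69 on the last, which was not called. The last one was dim, with means of 24.1 with Upf1p-TAP and 11.7 in the mock, and so was the one at -1.52, with 8.69 and 32.2 in the same order and 3.26 on the first Upf1p-TAP array, under the added 4.09. With the mean of all probe sets of a gene, RPT5, RPT4 and PUP1 were called lower as well, which gave 16 lower of 32. RPT4 and PUP1 have 1 probe set each, so their ratios did not change and only the new fit moved their calls. The share of all genes called in that fit is not given here. RPT5 and PUP1 were also called lower after quantile normalization and after median centring.

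RPN4 and RPN14, the non-subunits with matching symbols, had ratios above 0. RPN4, the activator of the subunit genes, had 160.2, 279.6, 222 and 236 with Upf1p-TAP, against 215, 163, 156 and 119 in the mock. Pair 1 was low and the other pairs high, and its ratio of 0.45 did not pass (interval -0.11 to 1.02, adjusted p = 0.208). RPN14, which helps to assemble the base, had 224, 159, 306 and 201 with Upf1p-TAP, against 163, 136, 126 and 136 in the mock. It was above its mock in each pair, and its ratio of 0.62 did not pass (interval 0.11 to 1.12, adjusted p = 0.0636), though it did with dim probe sets left out of the test.

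The pairs differed in size, and for some subcomplexes in direction. The median ratio of the 32 genes was -0.55, -0.36, -0.53 and -0.23 in pairs 1 to 4, with 26, 20, 24 and 20 genes below 0. Pair 3 held the lowest ratio of 17 genes, pair 1 of 8, pair 2 of 7 and pair 4 of 0. Shares over all probe sets are not given for these counts. Other protein-coding genes in the mock range of the subunits also differed by pair, with medians of -0.20, -0.12, -0.24 and 0.06 in pairs 1 to 4. The regulatory particle had medians of -0.69, -0.43, -0.82 and -0.30 in pairs 1 to 4, and the core -0.41, -0.06, -0.26 and -0.17. Over all pairs the medians were -0.58 for the 18 regulatory genes, with 9 lower and 0 higher, and -0.31 for the 14 core genes, with 4 lower and 1 higher. The alpha ring's median changed sign between pairs (-0.51, 0.14, -0.54 and 0.07 in pairs 1 to 4), and so did that of the beta ring (0.02, -0.12, 0.09 and -0.18). Of the 32 genes, 13 had pairs of either sign. Among all probe sets, 22.1% were lower in all 4 pairs, 25.1% were higher in all 4, and mixed signs were thus common. The difference between the particles was not tested.

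Since the ratio varies with the level on this array, the subunit genes were set beside protein-coding genes of like mock signal. Other genes between the mock levels of RPT2 and RPT6, the dimmest and brightest subunit probe sets in the mock, numbered 1823, of which 22.3% were lower and 14.6% higher, and their median ratio was -0.14. In pairs 1 to 4 the subunits' median lay below theirs by 0.35, 0.24, 0.29 and 0.28 on the log2 scale. Against the median of the 100 genes nearest in mock signal, 20 of the 32 subunit genes had a lower ratio and 12 a higher one, with a median difference of -0.36. By subcomplex the lower ones were 6 of 8 in the lid, 7 of 10 in the base, 4 of 7 in the alpha ring and 3 of 7 in the beta ring. With genes matched on the mean of all 8 arrays the count was 22 of 32 and the median difference -0.52, and the 2417 genes in that range had a median of 0.01. These are descriptions, since mock signal enters both the match and the ratio.

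**Figure D4:**
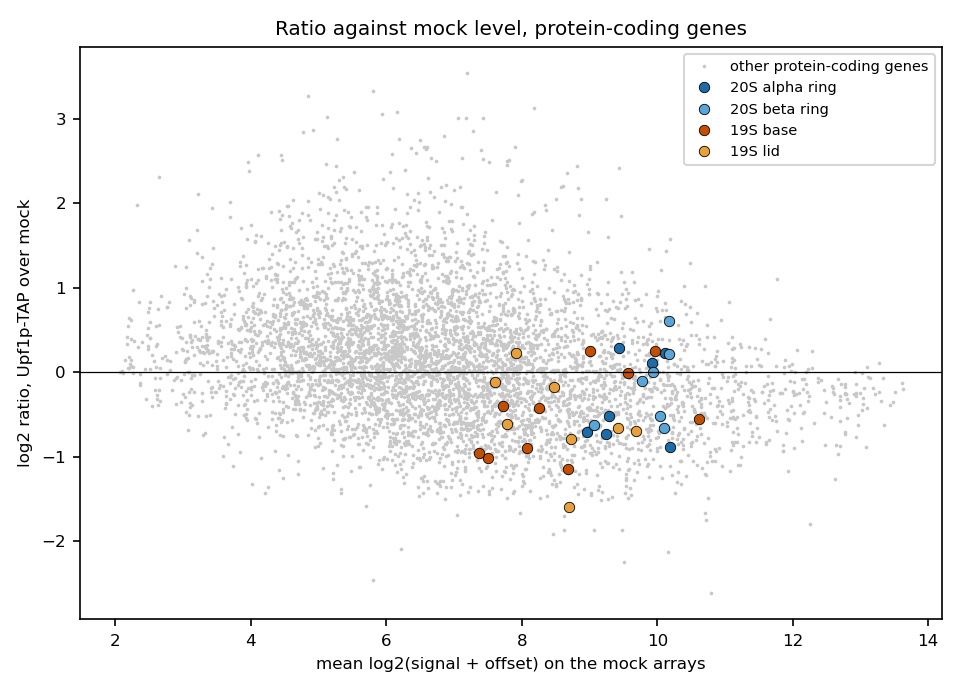
Log2 ratio of Upf1p-TAP over mock (y axis) against the mean log2 signal on the mock arrays (x axis, with the offset added) for protein-coding genes. Grey points are other protein-coding genes, coloured points the 32 subunit genes by subcomplex. The subunit genes lie in the brighter part of the range, and 24 of them have a ratio below 0.

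Over all 32 subunit genes, longer genes tended to have lower ratios, but length goes together with the particle. RPN1 (2982 bp) and RPN2 (2838 bp) are the longest, and the core genes run from 597 to 867 bp. Across the 32 genes Spearman's rho of ratio with gene length in the RefSeq table was -0.39 and Pearson's r with log2 length -0.45, values that became -0.27 and -0.31 without RPN1 and RPN2. Within the 18 regulatory genes, RPN1 and RPN2 among them, rho was -0.38, and within the 14 core genes it was -0.17. The regulatory value without RPN1 and RPN2 is not given. Among the 1823 other genes of like mock signal rho was -0.07. All genes share the same arrays, so these values describe the set. On the control probe sets for SRB4, the 3' over 5' signal was higher with Upf1p-TAP in all 4 pairs (log2 of 3.80 to 5.61, against 1.79 to 3.20 in the mock), though the 5' signal there was dim. For actin this held in 3 pairs and for SPT15 in 1. The part of RNA integrity in the length relation was not tested.

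On the chromosomes, RPT4 and RPN8 have 1 protein-coding gene between them, and PRE4 and RPN12 likewise. The ratios were -0.90 and -1.60 in the first case and -0.67 and 0.23 in the second.

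Over 7 other lists of the ubiquitin-proteasome pathway, 22.0% of 82 measured genes were higher and 13.4% lower, near the 17.7% and 13.5% of all probe sets. The counts within each list are to be read against these shares. Genes that assemble the proteasome or bind to it went both ways. Of 9 assembly factors 1 was lower and 1 higher (11.1% each, median -0.04). ADD66, a chaperone of the alpha ring, was lower, with 168, 87.1, 96.8 and 129 on the Upf1p-TAP arrays, against 279.9, 324, 270.3 and 195 on the mock arrays, and a ratio of -1.15 (SE 0.25, adjusted p = 0.00797). POC4, another chaperone of that ring, was higher at 0.72 (limma, adjusted p = 0.0168). UMP1, the maturation factor of the core, did not pass (0.29). Of 9 proteasome-associated proteins 2 were lower and 1 higher (22.2% and 11.1%, median -0.49). UBP6, the deubiquitinase bound to the base, had 221, 217, 167 and 245 with Upf1p-TAP, against 504, 433, 625 and 413 in the mock, without overlap and with a ratio of -1.20 (SE 0.22, adjusted p = 0.00393). ECM29, which holds core and cap together, was lower (-0.89, means of 12.6 with Upf1p-TAP and 27.4 in the mock, a dim signal). MUB1, a partner of the ligase that marks Rpn4 for destruction, was higher (1.13). The calls of POC4 (without pair 2 or 4, highest adjusted p = 0.0805), ECM29 (without pair 4, 0.0595) and MUB1 (without pair 4, 0.0572) ended when a pair was left out, and POC4 also with no pair block. With the mean of its probe sets ECM29 was not called.

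Upstream of the proteasome, genes of the ubiquitin system were also called in both directions, as among all probe sets (17.7% higher and 13.5% lower). CDC48, the ATPase that extracts ubiquitylated proteins, was lower with 344 ± 93.3 against 778 ± 216 in the mock (SD, n = 4 each), a ratio of -1.17, and 4 other genes of its list were higher. These were the ER adaptor gene UBX2 (1.13), OTU1 (0.80), the shuttle gene RAD23 (0.72) and NPL4 (0.71). The list of 12 thus had 1 lower and 4 higher (8.33% and 33.3%) and a median of 0.29. Of the 3 ubiquitin and activating enzyme genes measured, UBA1, the activating enzyme, was lower (-1.32) with 135 ± 11.1 against 362 ± 129 in the mock (SD, n = 4 each). RPS31, a fusion of ubiquitin with a ribosomal protein, was lower too (-0.87), and the polyubiquitin gene UBI4 did not pass (-0.04). RPL40A and RPL40B had no probe set of their own. The calls of RAD23 (without pair 1, 2 or 4, highest adjusted p = 0.0962), OTU1 (without pair 2, 3 or 4, 0.0986) and NPL4 (without pair 2, 3 or 4, 0.159) ended when a pair was left out. RPS31 was not called with no pair block, nor NPL4 after quantile normalization or median centring.

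Among 11 ubiquitin-conjugating enzyme genes 4 were higher and 2 lower (36.4% and 18.2%, median 0.33). The peroxisomal PEX4 had 237, 284, 447 and 262 with Upf1p-TAP, against 44.9, 86.5, 62.9 and 45.4 in the mock, without overlap and with a ratio of 2.29 (SE 0.23, adjusted p = 1.51e-04), the highest of the 82 pathway genes measured outside the subunits. CDC34, which works with SCF ligases, had 336, 505, 598 and 332 with Upf1p-TAP, against 162, 124, 116 and 91.6 in the mock. The groups did not overlap, and the log2 ratio was 1.79 (SE 0.24, adjusted p = 7.11e-04). UBC11 (2.10) was dim, above all in the mock (36.6 with Upf1p-TAP and 6.4 in the mock), and RAD6 (0.89) was higher as well. UBC7, of the ER degradation pathway, and UBC8 were lower (-0.72 and -0.63). The calls of UBC7 (without pair 1, 2 or 3, highest adjusted p = 0.113) and UBC8 (without any 1 pair, highest 0.134) ended when a pair was left out, and those of RAD6 and UBC8 with no pair block.

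Ubiquitin ligase genes gave 3 higher and 3 lower of 20 (15.0% each, median 0.00). SKP1, the adaptor of SCF ligases, was higher with 2496 ± 426 against 1076 ± 178 in the mock (SD, n = 4 each), a ratio of 1.21, and so were MET30 (0.99), an F-box gene, and HUL4 (0.73). The ligases of the ER membrane, SSM4 (-1.18) and HRD1 (-0.85), were lower, and so was UFD4, with 71.9 ± 15.9 against 149.7 ± 44.1 in the mock (SD, n = 4 each). Of 18 deubiquitinase genes 5 (27.8%) were higher and 0 lower (median -0.00), against 17.7% and 13.5% of all probe sets: UBP5 (1.22), UBP16 (0.92), UBP7 (0.83), RRI1 (0.82), which encodes an enzyme that removes the ubiquitin-like protein Rub1, and DOA4 (0.78). UBP7 was dim, with 17.3 in Upf1p-TAP against 8.43 in the mock. Means of UBP16 (39.7 and 19.5), DOA4 (46.1 and 24.2) and RRI1 (40.9 and 20.9), in the same order, also lay under the median of all values (66.6). The calls of HUL4 (without pair 1, 2 or 3), HRD1 (without pair 1, 3 or 4), UFD4 (without pair 4), RRI1 (without pair 2, 3 or 4), DOA4 (without pair 2 or 4) and UBP7 (without any 1 pair) were lost when such a pair was removed. By limma the adjusted p reached 0.0944, 0.084, 0.0542, 0.0888, 0.0996 and 0.181 in that order. HUL4, RRI1 and UBP7 also lost their calls after median centring, HUL4 after quantile normalization as well, DOA4 and UBP7 with no pair block, and UBP7 with no offset.

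**Figure D5:**
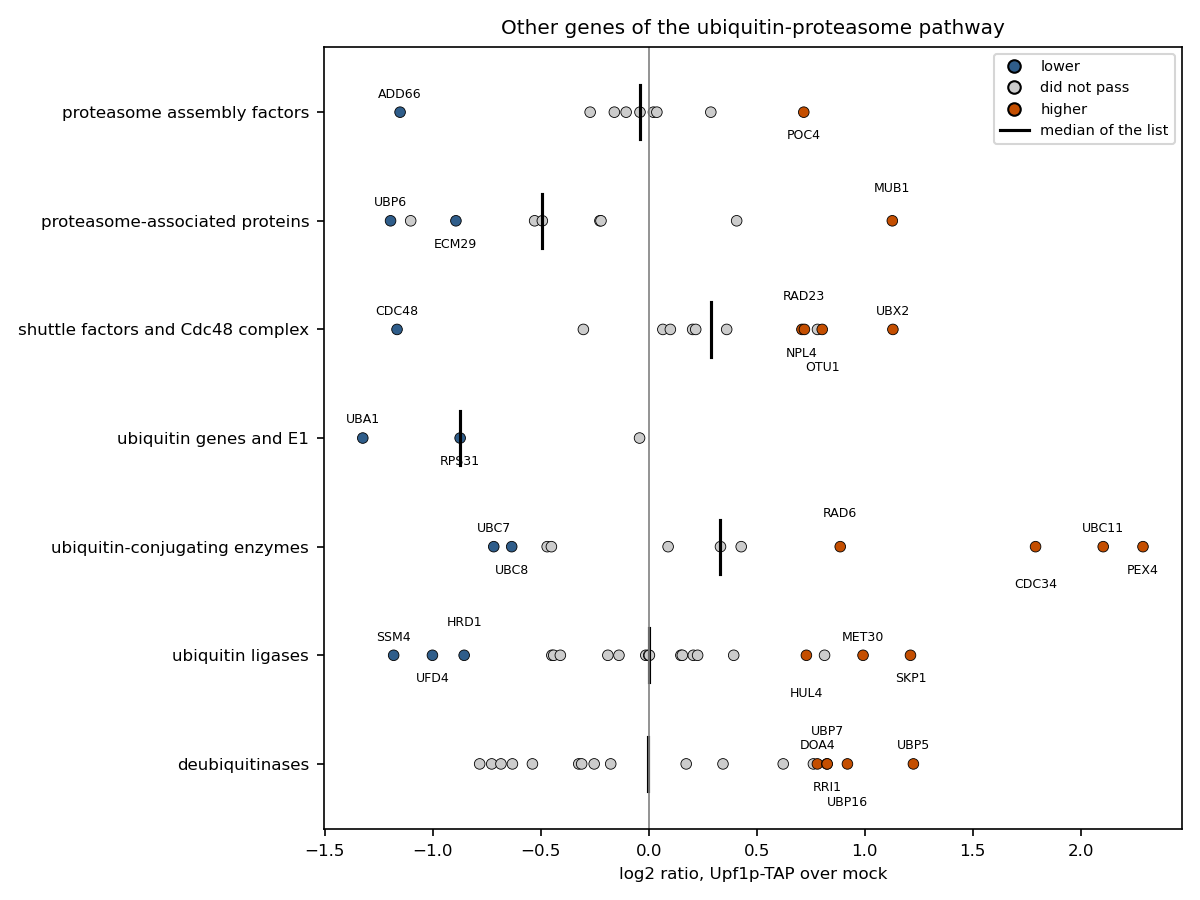
Log2 ratio of Upf1p-TAP over mock (x axis) for the genes of 7 other lists of the ubiquitin-proteasome pathway (rows). Blue points were called lower, orange points higher, grey points did not pass, and black lines are list medians. Of 82 genes measured, 18 were called higher and 11 lower (22.0% and 13.4%, against 17.7% and 13.5% of all probe sets), and CDC34, UBC11 and PEX4 lie farthest to the right.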

How the data were processed

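RNA from 4 Upf1p-TAP and 4 mock selections was labelled with biotin and hybridised to 1 array each, per the labels' protocols. The table deposited by the authors holds linear intensity values of 9335 probe sets. GCOS is named, with no version or setting, in the submitters' processing notes. The deposited intensities had been scaled, since the trimmed mean of every array (2% left out at each end) lay between 250.2 and 250.3. Intensities carry no read depth, so precision is limited by how many arrays there are. Scanner files were not used here.

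The test covered 9275 probe sets, after 60 control probe sets had been removed. The platform annotation gave 1 gene for 6504 of these, several for 328 and none for 2443, and symbols were updated through the RefSeq gene table of assembly R64. The 10th percentile of the values (4.09) was added to each intensity before log2 was taken, and this was fitted with limma 3.58.1 in R 4.3.3, with the pair as a block and an intensity trend. The design text names pairs of selections, and deviations from the group means correlated above 0 in every pair (r = 0.18 to 0.55). Arrays of unlike number gave r = -0.54 to 0.35. Upf1p-TAP array 2 correlated more with mock array 3 (0.35) than with its own (0.18). Mock array 3 correlated less with its own Upf1p-TAP array (0.25). Mock array 2 correlated more with Upf1p-TAP array 3 (0.20) than with its own, while Upf1p-TAP array 3 correlated most with its own. These correlations do not settle how the arrays numbered 2 and 3 pair, and the pairing follows the replicate numbers in the labels. Adjusted p-values are Benjamini-Hochberg over all 9275 probe sets, two-sided. Intervals are limma's 95% intervals of the log2 ratio, and SE is its moderated standard error. Fold changes on this scale understate the change of dim genes. A gene was shown by a plain probe set before one whose name carries an added letter, then by the brightest. The procedure was tested on simulated data.

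The members, the other lists and the rule for naming were chosen with earlier results of these data known. Values on every array were given for up to 4 genes of each subcomplex with the smallest p and for those with the highest and lowest ratio. From the other lists, genes that passed were named. UMP1, UBI4, RPL40A and RPL40B were named outside this rule, for their roles. The gene table served for gene lengths and for which genes neighbour each other. Gene sequences were not used here.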

Additional observations from a re-analysis of the deposited data

Results flagged for a closer look

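Of 70 groups of 4 arrays examined (35 genes in either group of arrays), 2 held an array far from the other three by Dixon's test at 95%, and chance gives about 1 in 20. RPN7, a lid subunit gene, had 184.7 on the Upf1p-TAP array of pair 1, against 351 to 382 on the other Upf1p-TAP arrays (gap over range 0.884). PRE7, a beta ring gene, had 1056 on the mock array of pair 2, against 810 to 826 on the other mock arrays (0.928). Both genes stayed uncalled in all 12 settings.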

How the results depend on the processing

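The main count was 13 subunit genes lower and 1 higher. With no replicate block the pairing was left out and 9 were lower and 0 higher. No gene was higher with median centring (0) or with no intensity trend (0) either, and leaving out 1 pair gave 0 to 1 higher and 5 to 10 lower. The other alternatives kept 1 higher, and over all settings beside those without a pair the lower count ran from 9 to 17. The share of all probe sets called is given for the main fit only, so these counts have no such share beside them. The median ratio of the 32 genes lay between -0.66 (median centring) and -0.39 (without pair 3), always below 0. The beta ring's median of -0.10 became -0.25 with median centring and -0.40 when the probe sets of each gene were averaged. The median of genes of like level was 0.01, in place of -0.14, when the range was set by all 8 arrays. Of the 14 calls, 5 held in all 12 settings, namely RPN8, RPN2, RPN1, RPT2 and PRE6. No call changed sign, and 5 uncalled genes had a ratio of either sign. The cause of these changes was not tested. With 4 pairs and a median standard error of 0.20 for these genes, ratios much nearer to 0 than those called would be missed.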
